A study of Mus musculus with 3 samples.

Results

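Cells show fragments of their own proteins to T cells through MHC class I. The molecule is a heavy chain, encoded here by *H2-K1*, *H2-D1* or *H2-T23*, bound to the light chain *B2m*. Immunoproteasomes and proteasomes cut the peptides, the *Tap1*/*Tap2* transporter carries them into the endoplasmic reticulum, and tapasin (*Tapbp*) helps load them. *Nlrc5* is the transactivator of class I genes, and interferon raises the whole pathway. These 8 genes were chosen by name, as the class I genes of this pathway, and all 8 were found, each once, among the 27998 genes of the count matrices. They were followed over the cell classes of 3 libraries.

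The libraries were sorted EpCAM+ epithelial cells of the mouse small intestine, on the C57BL/6 strain, from mice given 2 doses of 2 mg tamoxifen at 7 to 8 weeks of age. The WT mouse, labelled as wild type with no further allele given, was taken at day 21 after tamoxifen. *LApc* (Lgr5-CreERT2;Apc fl/fl) was taken at day 29, and *LApcL*, which carried Lef1 fl/fl beside the same Cre and Apc fl/fl alleles, at day 21. Cre was driven by the *Lgr5* locus, so the floxed genes were targeted in stem cells and their progeny, while other cells of the same mice kept them. The floxed *Lef1* mice had been backcrossed to C57BL/6 from a mixed background. Each genotype was 1 mouse and 1 library. Genotype, mouse, library and, for *LApc*, day therefore cannot be told apart, and no test between genotypes was possible. All intervals given are 95% intervals for counting error and say nothing about the spread between mice.

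The kept cells numbered 10191 (WT), 9634 (*LApc*) and 14509 (*LApcL*), with a median of 9734, 6133 and 10168 unique molecular identifiers (UMIs, counted RNA molecules) per cell. *LApc* was the shallowest library and lost 17.7% of its barcodes to the limit on mitochondrial UMIs, against 0.541% and 2.38%. Between 214 and 318 barcodes occurred in both libraries of a pair. Cells were classed from their marker genes, and cells with stem, transit-amplifying and Wnt target markers were called Wnt/TA-like. Among these, adenoma-enriched cells were the subclusters nearly free of WT cells (4 WT, 1292 *LApc* and 9264 *LApcL* cells). The cluster that held most of them led with *Clu*, *Ifitm1*, *Wfdc18*, *Myl9*, *Sox17* and *S100g*. The 4 WT cells are too few for a level, so this class had none in WT. The other Wnt/TA-like cells numbered 3060, 2162 and 1259. The 8 genes and their pathway were left out of the features used for integration and clustering. *Epcam*, the sorted epithelial antigen, stood at 1453 to 2035 CPM in the 5 Wnt/TA-like pools (CPM, UMIs of a gene per 1000000 UMIs of the pooled cells). *Lef1*, the gene floxed in *LApcL*, was counted at 21.6 (*LApc*) and 3.61 CPM (*LApcL*) in adenoma-enriched cells. Counts from RNA 3′ ends need not fall in a deleted exon, so neither *Lef1* nor *Apc* counts measure the deletions directly.

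Of the 8 genes, 6 lie in the MHC region of chromosome 17 (GRCm38), within which *Tap1* and *Tap2* are close neighbours. All are protein coding. *H2-K1* (ENSMUSG00000061232) spans chr17:33996017-34000347 on the minus strand, *H2-D1* (ENSMUSG00000073411) chr17:35262730-35267499 on the plus strand and *H2-T23* (ENSMUSG00000067212) chr17:36029773-36032855 on the minus strand. *Tapbp* (ENSMUSG00000024308) spans chr17:33915899-33929292, *Tap1* (ENSMUSG00000037321) chr17:34187553-34197225 and *Tap2* (ENSMUSG00000024339) chr17:34203527-34216321, all on the plus strand. *B2m* (ENSMUSG00000060802) lies at chr2:122147686-122153083 and *Nlrc5* (ENSMUSG00000074151) at chr8:94434356-94527272, both on the plus strand. Class I heavy chains are near copies of each other, so the 50-base words of the last 500 bases of each transcript were searched in the transcripts of all other genes. *H2-T23* shared 38.1% of its words and *H2-D1* 9.53%, *H2-K1* shared 0.443%, and the other 5 genes shared none. The genes sharing most words with *H2-T23* were *Rab33b*, *H2-T-ps*, *Hook2*, *Gm42508* and *Vamp3*. For *H2-D1* they were *AC132307.5*, *Adsl*, *Kcnk4*, *Nmrk1* and *Paip2b*, and *H2-K1* shared its words with *H2-D1*. The genes sharing most words with *H2-T23* and *H2-D1* were thus not among the 8. Shared words cannot be told to one gene by their sequence, most so for *H2-T23* and *H2-D1*. Their effect on the counts was not tested.

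The promoters of *B2m*, *H2-K1*, *H2-D1* and *Tap1* are shown as examples. Their genes were lower in adenoma-enriched cells of *LApcL* than in those of *LApc*, but so were the remaining class I genes followed here. Within *LApcL*, *B2m* and *Tap1* were lower in adenoma-enriched than in other Wnt/TA-like cells, while *H2-K1* and *H2-D1* were close to level. Within *LApc* all of the shown genes were higher. The choice therefore does not mark a group that moved together apart from the rest. Each window runs from 250 bases before to 50 bases after the RefSeq transcription start on GRCm38.p6. Capitals mark the motifs searched on both strands, GGG and CCC with any 5 bases between (a kappaB-like site), TTTCNNTT (the core of an interferon response element), TGACG (the core of the X2 box) and CCAAT.
B2m, chr2:122147437-122147736, plus strand: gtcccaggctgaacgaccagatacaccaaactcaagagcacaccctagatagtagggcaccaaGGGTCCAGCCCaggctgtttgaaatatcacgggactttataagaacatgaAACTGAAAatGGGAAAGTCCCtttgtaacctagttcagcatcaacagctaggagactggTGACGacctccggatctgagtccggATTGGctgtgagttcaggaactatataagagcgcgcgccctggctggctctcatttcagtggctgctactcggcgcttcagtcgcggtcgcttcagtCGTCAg
H2-K1, chr17:34000298-34000597, minus strand: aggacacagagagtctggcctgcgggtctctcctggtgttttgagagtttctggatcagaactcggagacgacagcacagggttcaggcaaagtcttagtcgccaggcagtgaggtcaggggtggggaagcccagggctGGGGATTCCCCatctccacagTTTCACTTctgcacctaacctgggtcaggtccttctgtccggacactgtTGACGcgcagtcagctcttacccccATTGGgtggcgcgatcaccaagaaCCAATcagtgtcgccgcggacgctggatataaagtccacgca
H2-D1, chr17:35262844-35263143, plus strand: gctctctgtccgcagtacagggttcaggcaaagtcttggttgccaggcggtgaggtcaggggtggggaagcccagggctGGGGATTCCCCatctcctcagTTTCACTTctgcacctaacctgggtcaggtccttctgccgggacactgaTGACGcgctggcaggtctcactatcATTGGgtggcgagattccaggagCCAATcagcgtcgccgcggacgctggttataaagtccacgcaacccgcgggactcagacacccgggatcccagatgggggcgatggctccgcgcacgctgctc
Tap1, chr17:34187306-34187605, plus strand: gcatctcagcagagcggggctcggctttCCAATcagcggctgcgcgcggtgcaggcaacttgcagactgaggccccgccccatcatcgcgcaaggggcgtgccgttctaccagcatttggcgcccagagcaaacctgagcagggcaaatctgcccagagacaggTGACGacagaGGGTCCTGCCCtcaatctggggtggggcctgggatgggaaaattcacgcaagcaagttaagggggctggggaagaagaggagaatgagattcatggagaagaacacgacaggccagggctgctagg

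The *B2m*, *H2-K1* and *H2-D1* windows held all 4 motifs, as did 0.167% of the 32851 promoter windows of the table. The letters were picked from elements known in class I promoters, so their presence in these genes is a description and not a result. Singly, the motifs stood in 14.0% (the kappaB-like motif), 23.9% (TTTCNNTT), 20.8% (TGACG) and 37.4% (CCAAT) of all windows. Over their best ungapped match of 240 bases, the *H2-K1* and *H2-D1* windows were identical at 176. The *Tap1* window held the kappaB-like motif, TGACG and CCAAT. It overlaps that of *Psmb9*, an immunoproteasome subunit gene read in the other direction, by 275 bases. The *H2-T23* window held TTTCNNTT and CCAAT and that of *Tapbp* CCAAT alone. In all, 6 of the 8 genes had a window in the table, and *Tap2* and *Nlrc5* were not matched.

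In adenoma-enriched cells all 8 genes were lower in *LApcL* than in *LApc*. The light chain *B2m* stood at 1064 (*LApc*) and 241 CPM (*LApcL*), 4.42-fold lower. The classical heavy chain *H2-K1* stood at 673 and 193 CPM, 3.48-fold lower, and *H2-D1* at 936 and 269 CPM, 3.49-fold lower. The light chain was thus lower by the larger factor.

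The nonclassical heavy chain *H2-T23*, whose product Qa-1 is a ligand of inhibitory receptors on natural killer and T cells, stood at 72.9 and 22.9 CPM. Of the peptide transporter, *Tap1* stood at 31.2 (*LApc*) and 5.73 CPM (*LApcL*), and *Tap2* at 18.0 and 2.78 CPM. Tapasin showed the smallest gap of the 8, with *Tapbp* at 102 and 41.5 CPM. *Nlrc5* was near the limit of detection, with 29 UMIs in 1292 cells of *LApc* (2.87 CPM) and 24 UMIs in 9264 cells of *LApcL* (0.216 CPM). The log2 ratios ran from -1.29 (-1.392 to -1.196) for *Tapbp* to -3.73 (-4.57 to -2.90) for *Nlrc5*. The transporter genes, at -2.45 (-2.64 to -2.25) and -2.69 (-2.96 to -2.42), lay further from 0 than the heavy chains, at -1.67 to -1.80.

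Summed over the 8 genes, the level was 2900 (*LApc*) and 776 CPM (*LApcL*), a log2 ratio of -1.90 (-1.92 to -1.88). TMM scaling factors, which assume that most genes do not differ, moved every log2 ratio of this comparison by 0.24, and those within *LApc* and within *LApcL* by -0.28 and -0.16. With them the sum gave -1.66 here. Among all genes with a mean of at least 5 CPM over the pools compared, 16.5% were at least 1.5-fold lower in *LApcL*, and 3.58% were at least 1.5-fold higher. Of the 8 genes, 7 passed that filter, *Nlrc5* did not, and all 7 were at least 1.5-fold lower. *Tap2* passed it through its level in *LApc*. The median log2 ratio of the 7 was -1.80, against -0.11 over the 9731 genes tested.

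The reference for these levels within each library was the other Wnt/TA-like cells. In *LApc*, adenoma-enriched cells held more class I RNA than those cells. The summed level was 2900 against 1386 CPM, a log2 ratio of 1.07 (1.04 to 1.09), and each of the 8 genes was higher. *H2-D1* differed most, at 936 against 305 CPM, a log2 ratio of 1.62 (1.57 to 1.67). *H2-T23* stood at 72.9 against 28.8 CPM, *H2-K1* at 673 against 281 CPM, *Tap2* at 18.0 against 8.80 CPM and *Tapbp* at 102 against 52.2 CPM. *B2m*, at 1064 against 685 CPM, and *Tap1*, at 31.2 against 23.2 CPM, differed less. In this comparison 27.4% of all tested genes were at least 1.5-fold higher and 11.1% at least 1.5-fold lower. Of the 7 class I genes that passed the filter, 6 were at least 1.5-fold higher (all but *Tap1*), with a median log2 ratio of 1.03 against 0.20 over all genes tested. *B2m*, at a log2 ratio of 0.64, lay near the 1.5-fold line. It was 0.35 with TMM, 0.58 in cells free of immune and stromal markers and 0.30 without a *Wfdc18*-led group of cells, and then 5 of the 7 were past 1.5-fold.

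In *LApcL* the same contrast split the pathway. *B2m* stood at 241 CPM in adenoma-enriched cells and 634 CPM in the other Wnt/TA-like cells, a log2 ratio of -1.40 (-1.43 to -1.36). *Tap1* stood at 5.73 and 18.5 CPM, a log2 ratio of -1.69 (-1.91 to -1.46). *Tap2*, at 2.78 and 7.19 CPM, and *Nlrc5*, at 0.216 and 0.826 CPM, were also lower, although neither passed the filter. The heavy chains and tapasin were close to level. *H2-K1* stood at 193 and 217 CPM, *Tapbp* at 41.5 and 43.2 CPM. *H2-D1* stood at 269 and 242 CPM and *H2-T23* at 22.9 and 20.7 CPM, and both small differences changed sign when TMM scaling factors (edgeR) replaced the total. The summed log2 ratio was -0.61 (-0.64 to -0.58). Of the 6 genes that passed the filter, 2 were at least 1.5-fold lower and none higher, beside 7.7% and 17.4% of all genes tested. The median of the 6 was -0.11, against 0.17 over all genes tested.

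**Figure D1:**
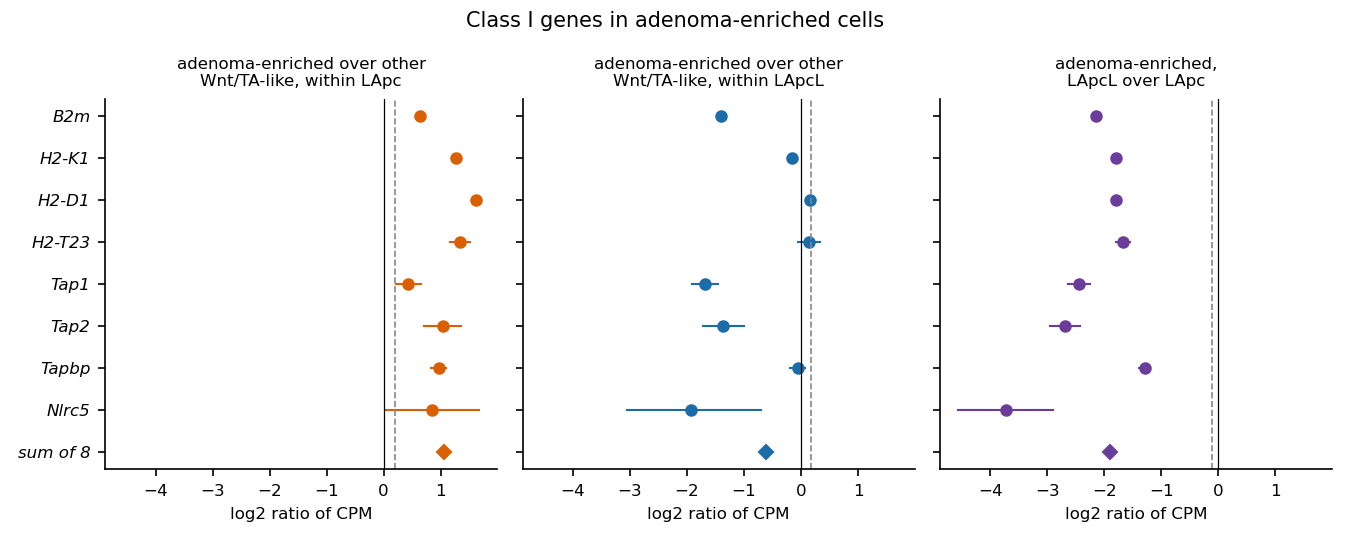
Log2 ratios of CPM (x axis) for the 8 class I genes and their sum (y axis) in 3 comparisons, with 95% intervals for counting error. The solid line marks 0 and the dashed line the median of all genes tested. All 8 genes lie right of 0 within *LApc* and left of 0 in *LApcL* over *LApc*, while within *LApcL* *B2m*, *Tap1*, *Tap2* and *Nlrc5* lie at -1.37 or below and the heavy chains and *Tapbp* near 0.

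The other Wnt/TA-like cells of the 3 libraries differed much less. *B2m* stood at 813, 685 and 634 CPM in WT, *LApc* and *LApcL*, with the highest level in WT. *H2-K1* stood at 251, 281 and 217 CPM and *H2-D1* at 256, 305 and 242 CPM, highest in *LApc*. The sum gave a log2 ratio of -0.02 for *LApc* over WT, which was 0.02 without ribosomal protein and mitochondrial genes in the total. For *LApcL* over WT, a comparison with the same WT library, it gave -0.25. The less abundant genes showed larger ratios in *LApc*, where *Tap1* stood at 23.2 CPM against 13.5 in WT, *Tap2* at 8.80 against 5.69 and *H2-T23* at 28.8 against 17.0. These 3 were the only ones of the 7 genes past the filter to be at least 1.5-fold higher in *LApc* than in WT, beside 5.86% of all genes, and none was lower, beside 2.7%. *Tap2*, at a log2 ratio of 0.63, fell under 1.5-fold with TMM (0.55) and without doublet removal (0.56). In *LApcL* none of the 7 was at least 1.5-fold higher or lower than in WT, beside 3.83% and 4.27% of all genes. Nor was any of them between *LApcL* and *LApc*, beside 1.66% higher and 4.55% lower over all genes. *Nlrc5* had 9, 25 and 10 UMIs in the 3 pools.

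The adenoma-enriched class was made of 3 subclusters, which took different shares of their cells from *LApc* and *LApcL*. The gap between the libraries stood within each. In subcluster 0 (439 *LApc* and 4153 *LApcL* cells) the summed level was 2175 and 738 CPM, in the *S100g*-led subcluster 1 (266 and 4194 cells) 2345 and 748 CPM, and in the *Wfdc18*-led subcluster 4 (587 and 917 cells) 3968 and 1149 CPM. All 8 genes were lower in *LApcL* in each of the 3. The 7 that passed the filter were at least 1.5-fold lower in each, beside 14.6%, 11.2% and 17.3% of all genes (4.77%, 3.72% and 6.04% were higher). In *LApcL*, *Tap2* stood at 2.27 and 2.80 CPM in subclusters 0 and 1, and *Tap1* at 4.57 CPM in subcluster 1. There these genes passed the filter through *LApc* alone and were nearly bound to differ. In both libraries subcluster 4 stood highest. Over all its cells it also held 63.4 CPM of *Gzma* and 5.49 CPM of *Cd3g*, genes of cytotoxic and other T cells, against 2.43 and 0.232 CPM in subcluster 0 and 0.996 and 0.287 CPM in subcluster 1. Their part in the class I level of subcluster 4 was not tested. *B2m* there was 1446 (*LApc*) and 358 CPM (*LApcL*), against 786 and 255 CPM in subcluster 0 and 896 and 205 CPM in subcluster 1.

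Subclustering without the correction between libraries gave a *Wfdc18*-led group of 837 adenoma-enriched *LApc* cells and 22 *LApcL* cells. In *LApc* its summed level was 3257 CPM, against 2300 CPM in the other 455 adenoma-enriched cells. All 8 genes were higher in it. Over all libraries the group held 143 CPM of *Gzma* and 13.1 CPM of *Cd3g*, against 0.372 to 2.77 CPM of *Gzma* in the other uncorrected subclusters, and their part in its level was not tested. *B2m* stood at 1195 against 844 CPM, *H2-K1* at 737 against 567 CPM and *H2-D1* at 1068 against 715 CPM. Of the 7 past the filter, *H2-T23* and *Tap2* were at least 1.5-fold higher, beside 10.8% of all genes (7.08% were lower). Without this group the log2 ratio of *LApcL* over *LApc* was -1.57 in place of -1.90, and adenoma-enriched over other Wnt/TA-like cells in *LApc* 0.73 in place of 1.07. *Nlrc5* was then lower, not higher, in the adenoma-enriched cells of *LApc* (-0.59, interval -2.57 to 0.94).

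Markers of immune cells moved with the *LApc* level. The 10 markers of T and NK cells summed to 219 CPM in adenoma-enriched cells of *LApc*, 6.82 CPM in those of *LApcL* and 2.40 to 15.1 CPM in the other Wnt/TA-like cells, and none of the 10 was at 0 in either adenoma-enriched pool. *Gzma*, a granule protease of cytotoxic lymphocytes, stood at 86.3 and 1.22 CPM, *Cd3g*, a chain of the T cell receptor complex, at 6.23 and 0.324 CPM. The 5 macrophage markers summed to 48.5 and 2.51 CPM, the 3 B and plasma cell markers to 17.1 and 0.288 CPM, the 4 fibroblast markers to 4.35 and 0.694 CPM and the 3 endothelial markers to 24.4 and 16.0 CPM. In the adenoma-enriched cells without a UMI of any of the 25 markers (75.4% of *LApc* and 82.2% of *LApcL*), the summed class I level was 2791 and 762 CPM, a log2 ratio of -1.87 (-1.90 to -1.85). All 7 genes past the filter were again at least 1.5-fold lower in *LApcL*, beside 16.5% of all genes when all adenoma-enriched cells were compared. *Tap2* (17.2 CPM in *LApc*, 2.83 CPM in *LApcL*) passed the filter through *LApc* alone. In such cells the log2 ratio of adenoma-enriched over other Wnt/TA-like cells was 1.01 in *LApc* and -0.63 in *LApcL*.

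To compare single cells at one depth, each cell was thinned to 3000 UMIs. This left out 48 of the *LApc* and 20 of the *LApcL* adenoma-enriched cells. Of the other Wnt/TA-like cells it left out 0 (WT), 69 (*LApc*) and 5 (*LApcL*). Adenoma-enriched cells of *LApc* then held a median of 5 UMIs of the 8 genes, with a 10th to 90th percentile range of 1 to 23 and a highest value of 97. Those of *LApcL* held a median of 2, a range of 0 to 5 and a highest value of 34. In the other Wnt/TA-like cells the medians were 4 (WT), 4 (*LApc*) and 3 (*LApcL*), each with a 90th percentile of 7. The *LApc* adenoma-enriched cells were thus the widest spread of the 5 pools, and their upper tail lay far above the others. Of the 3 *LApc* subclusters, subcluster 4 had the highest 90th percentile (29), against 15 and 14 in subclusters 0 and 1.

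The share of adenoma-enriched cells with at least 1 *B2m* UMI at this depth was 72.3% in *LApc* (exact Clopper-Pearson interval 69.8 to 74.8%) and 49.2% in *LApcL* (48.2 to 50.2%). In the other Wnt/TA-like cells it was 89.7%, 85.9% and 83.7% in WT, *LApc* and *LApcL*. *LApc* adenoma-enriched cells thus had the higher CPM but the lower share, so no order is read from this share between these classes. Without thinning, adenoma-enriched cells gave 89.0% (*LApc*, median of 7478 UMIs per cell) and 88.2% (*LApcL*, 11490 UMIs). The other Wnt/TA-like cells gave 99.8%, 97.3% and 98.5%, at medians of 10652.5, 7015 and 9078 UMIs. No UMI of any of the 8 genes was counted in 2.33% of the thinned adenoma-enriched cells of *LApc* and 12.1% of those of *LApcL*. Class I is expressed by nearly all nucleated cells, so no class could serve to measure how much of this is free RNA taken up in droplets.

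**Figure D2:**
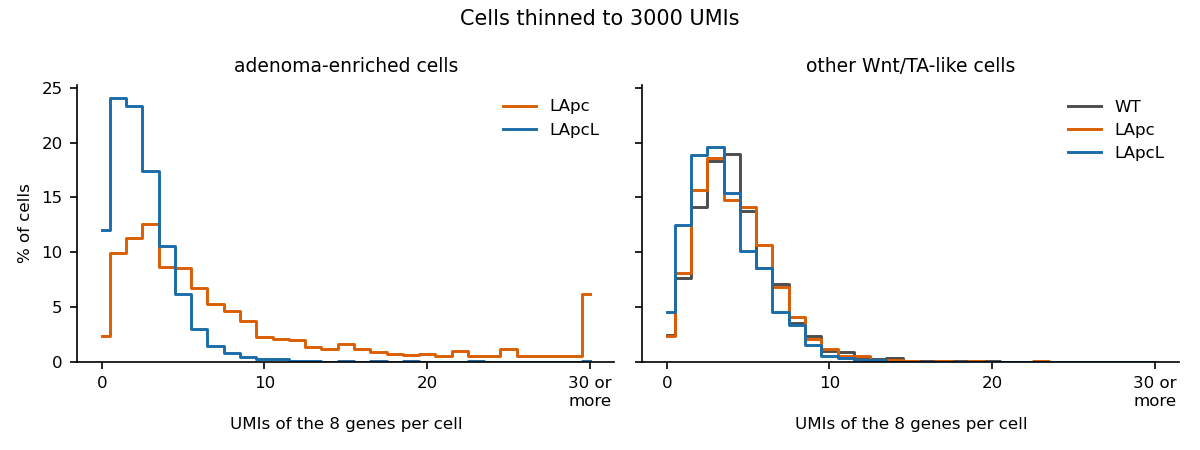
Share of cells (y axis, %) by the number of UMIs of the 8 class I genes (x axis, cells at 30 or more in the last step) after thinning to 3000 UMIs, for adenoma-enriched cells and the other Wnt/TA-like cells of each library. The *LApcL* adenoma-enriched cells peak at 1 to 2 UMIs and the *LApc* ones spread to 30 or more, while the other Wnt/TA-like cells of the 3 libraries lie close together with medians of 3 to 4.

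The other cell classes place these levels. In WT the summed level ran from 3758 CPM in the *Apoa4*-led enterocyte-like cluster, which carries villus genes of lipid absorption, through 2983 CPM in tuft-like cells, 2557 CPM in the *Fabp6*-led enterocyte-like cluster, 2054 and 1791 CPM in the goblet-like clusters, 1582 CPM in enteroendocrine-like cells and 1406 CPM in the Wnt/TA-like cells, to 341 CPM in Paneth-like cells. No 2 neighbours in this order had overlapping counting intervals, nor in *LApc* or *LApcL*. Adenoma-enriched cells were the third of 9 in *LApc*, below tuft-like cells (6787 CPM) and the *Apoa4*-led cluster (5355 CPM). They were the eighth of 9 in *LApcL*, above Paneth-like cells (431 CPM) alone. The Paneth-like pools held 246350 to 251653 CPM of the defensin gene *Defa24* alone, and CPM of all other genes are shares of what is left.

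**Figure D3:**
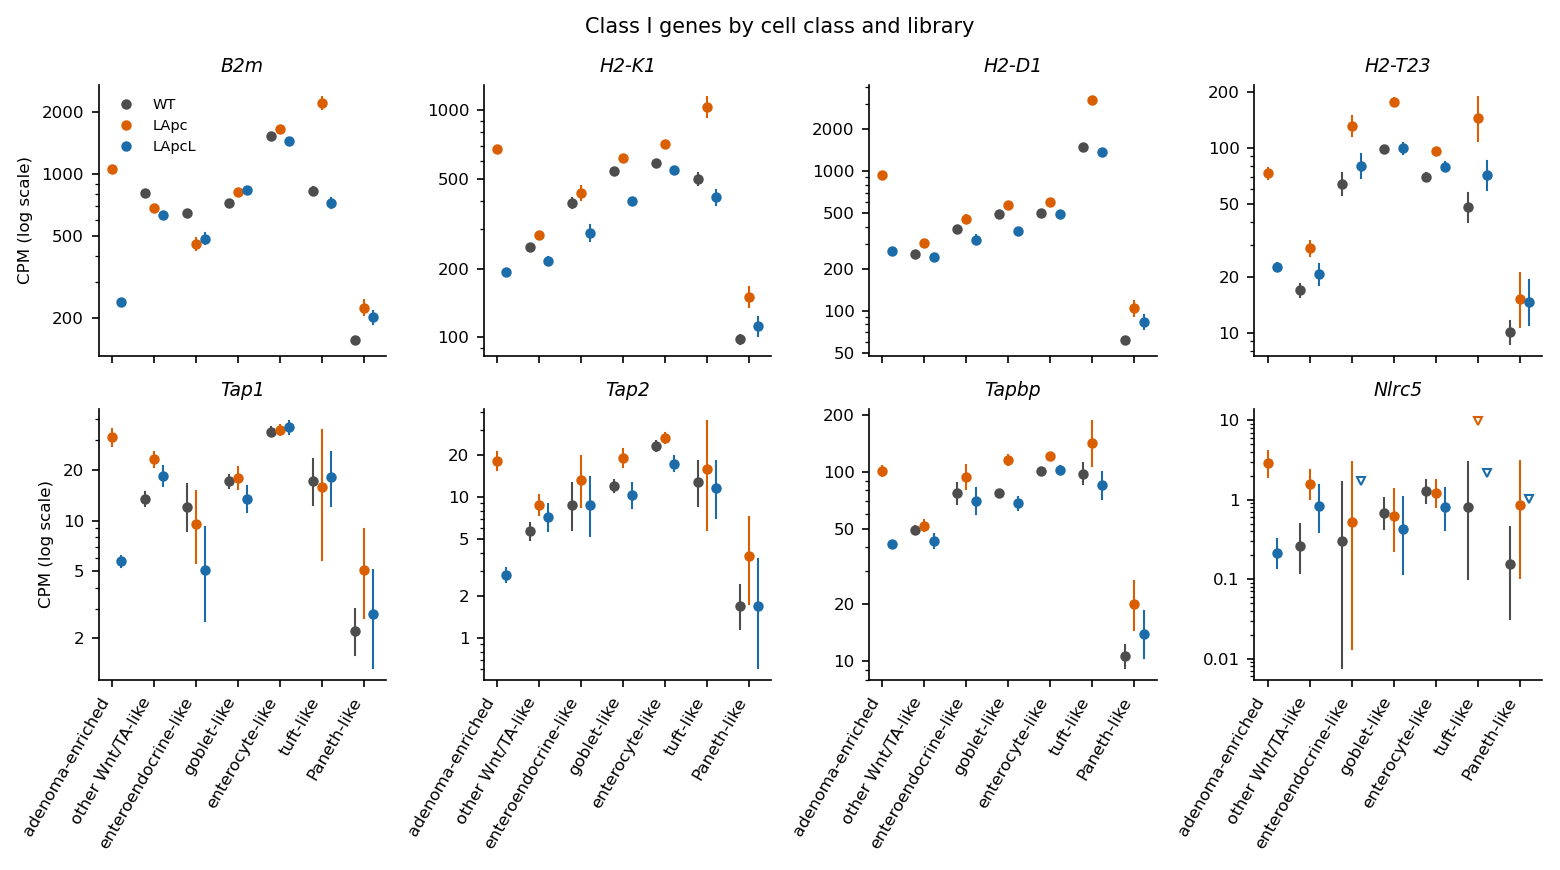
CPM (y axis, log scale) of each class I gene by cell class (x axis) and library (colour), with exact Poisson 95% intervals. Open triangles mark the upper limit where no UMI was counted. In the adenoma-enriched class every *LApcL* point lies below its *LApc* point, and in tuft-like cells *B2m*, *H2-K1*, *H2-D1* and *H2-T23* are highest in *LApc*.

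Tuft-like cells, rare chemosensory cells of the epithelium, had the highest *H2-D1* level of all classes in each library, with 1477 CPM in WT, 3211 (*LApc*) and 1378 CPM (*LApcL*). *B2m* stood at 831, 2217 and 729 CPM and *H2-K1* at 498, 1039 and 415 CPM, so *LApc* was highest in each. *H2-T23* stood at 47.9, 145 and 71.1 CPM. The *LApc* pool was small, with 73 cells and 6 UMIs each of *Tap1* and *Tap2*. The summed log2 ratio was 1.19 (1.12 to 1.25) for *LApc* over WT and -1.33 (-1.40 to -1.26) for *LApcL* over *LApc*. Of the 7 genes past the filter, 4 were at least 1.5-fold higher in *LApc* than in WT, beside 22.1% of all genes higher and 18.7% lower, and 5 were at least 1.5-fold lower in *LApcL* than in *LApc*, beside 17.1% lower and 20.9% higher. The macrophage and B cell markers were all at 0 in the *LApc* tuft-like pool, as were 7 of the 10 T and NK cell markers. This pool held only 378366 UMIs, and 6 (WT) and 7 (*LApcL*) of those 10 were at 0 in the other tuft-like pools. *Gzma* and *Ccl5*, 2 of the T and NK cell markers, stood at 2.64 and 5.29 CPM in *LApc*, against 0.410 and 0.819 CPM in WT. The part of immune cells in the tuft-like level was not tested. *Ptprc*, which tuft cells express themselves, stood at 72.9, 119 and 57.1 CPM.

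In the remaining classes the libraries lay closer together. In enterocyte-like cells the summed level was 2846, 3240 and 2717 CPM in WT, *LApc* and *LApcL*, and no gene past the filter was at least 1.5-fold higher or lower than in WT, beside 6.14% higher and 5.1% lower for *LApc* and 8.38% and 3.99% for *LApcL*. Between *LApcL* and *LApc*, *Tap2* alone was at least 1.5-fold lower, at 17.2 against 26.3 CPM, beside 4.48% of all genes lower and 9.03% higher. The sign of these small sums depended on the setting. *LApc* over WT was 0.19 at the 20% limit on mitochondrial UMIs and -0.09 at 10%. *LApcL* over WT was -0.07, and 0.04 without ribosomal protein and mitochondrial genes in the total. The split between the enterocyte-like clusters differed by library. In the *Apoa4*-led cluster *B2m* stood at 2064, 2846 and 2455 CPM and *H2-K1* at 848, 1241 and 1028 CPM, while in the *Fabp6*-led cluster *B2m* stood at 1359, 1167 and 1091 CPM. In the *Apoa4*-led cluster *H2-D1*, *H2-T23* and *Tap2* were at least 1.5-fold higher in *LApc* than in WT, beside 8.93% of all genes higher and 17.4% lower.

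In goblet-like cells 5 of the 7 genes past the filter were at least 1.5-fold lower in *LApcL* than in *LApc*, beside 5.39% of all genes (14.5% were higher), all but *B2m* and *Tap1*. *H2-T23* and *Tap2* were at least 1.5-fold higher in *LApc* than in WT, beside 5.61% of all genes higher and 9.24% lower. *H2-T23* stood at 99.4, 178 and 99.5 CPM in WT, *LApc* and *LApcL*, and *B2m* at 727, 816 and 838 CPM over the same goblet-like pools. The order of the libraries differed between the goblet-like clusters. In the *Ccl9*-led cluster, which held 770 of the 3260 (WT), 191 of the 1738 (*LApc*) and 221 of the 1158 goblet-like cells (*LApcL*), WT was highest, with 428, 375 and 296 CPM of *H2-K1*, 409, 380 and 301 CPM of *H2-D1* and 788, 549 and 680 CPM of *B2m*. In enteroendocrine-like cells *H2-T23* had 64.1, 132 and 80.4 CPM. There it and *Tap2* were at least 1.5-fold higher in *LApc* than in WT, beside 20.6% of all genes higher and 13.7% lower. In *LApcL*, 3 of the 7 genes past the filter (*H2-K1*, *H2-T23* and *Tap1*) were at least 1.5-fold lower than in *LApc*, beside 13.8% lower and 18.6% higher, with 11 UMIs of *Tap1* in *LApcL*. Paneth-like cells had 98.2, 151 and 112 CPM of *H2-K1* and 156, 225 and 202 CPM of *B2m*. There 4 of the 5 genes past the filter were at least 1.5-fold higher in *LApc* than in WT, a share to be read beside 64.1% of all genes (0.717% were lower).

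**Figure D4:**
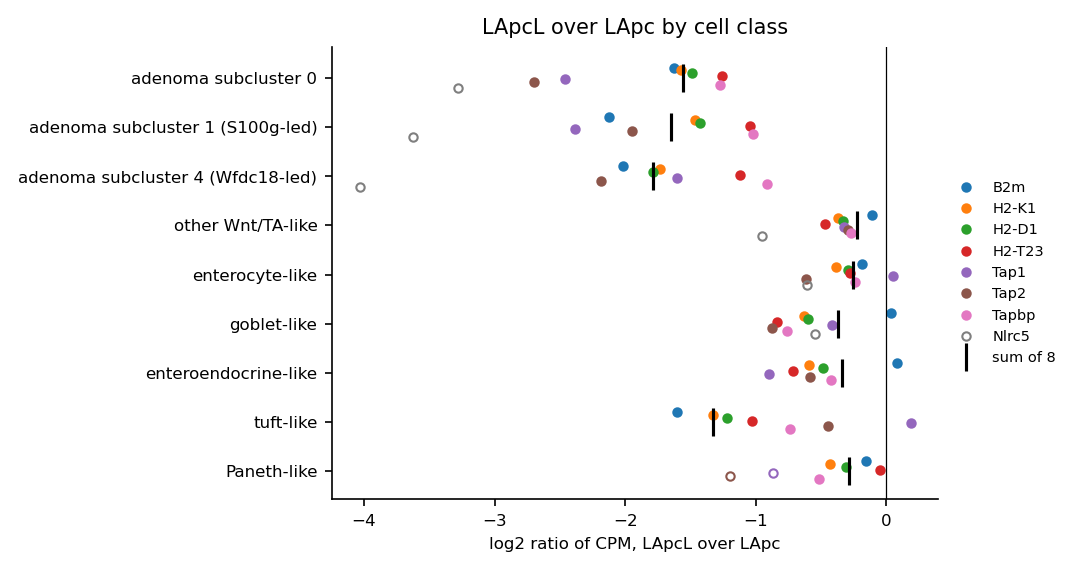
Log2 ratio of CPM, *LApcL* over *LApc* (x axis), for each class I gene (colour, open points under a mean of 5 CPM) and their sum (black bar) in the 3 adenoma-enriched subclusters and the other classes (y axis). The sums lie at -1.56 to -1.79 in the adenoma-enriched subclusters, at -1.33 in tuft-like cells and at -0.37 to -0.23 in the other classes.

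The genes whose pattern over 26 pools of class and library was most like the mean of the 8 were *Sipa1l3* (Pearson r = 0.959), *Gpa33* (0.943), *Erbb2ip* (0.942), *Ndfip2* (0.936) and *Prr13* (0.934), followed by *Plekhb2*, *Itm2b*, *Tmbim6*, *Lasp1* and *Cdipt* at 0.926 or more. The pools of a library share its depth, and 5026 genes were compared. Among the 8 themselves, r with their mean was highest for *H2-K1* (0.987) and *Tapbp* (0.981) and lowest for *Nlrc5* (0.233). Each of the 8 is part of that mean, which raises its r. Levels were logged after adding 10 CPM, so *Nlrc5*, at 2.87 CPM or less, could vary little.

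The rest of the pathway was read from lists of related genes, whose counts stand beside the shares of all genes tested at 1.5-fold. In adenoma-enriched cells, 16.5% of all genes were lower and 3.58% higher in *LApcL* than in *LApc*. Between adenoma-enriched and other Wnt/TA-like cells, 7.7% were lower and 17.4% higher within *LApcL*. Within *LApc*, 11.1% were lower and 27.4% higher. A gene that passed the filter through 1 of the pools alone (under 5 CPM in the other) was nearly bound to differ, and such genes are counted in each list where they occur. Of the 10 genes of peptide supply and loading, 5 were at least 1.5-fold lower in *LApcL* than in *LApc* adenoma-enriched cells, none was higher and 5 lay between. The immunoproteasome subunit *Psmb8* stood at 26.3 CPM in *LApcL* and 141 CPM in *LApc*, and *Psmb9* at 19.3 and 71.7 CPM. The tapasin relative *Tapbpl* stood at 11.9 and 28.3 CPM, *Psme1*, of the proteasome activator, at 160 and 246 CPM and *Pdia3*, of the loading complex, at 193 and 297 CPM. With TMM, *Psme1* and *Pdia3* lay within 1.5-fold. The constitutive subunits that the immunoproteasome subunits replace lay within 1.5-fold, with *Psmb5* at 390 and 376 CPM, *Psmb6* at 427 and 433 CPM and *Psmb7* at 282 and 266 CPM.

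Within *LApcL*, 6 of the 10 were at least 1.5-fold lower in adenoma-enriched than in other Wnt/TA-like cells. *Psmb8* stood at 26.3 against 115 CPM, *Psmb9* at 19.3 against 90.9 CPM, *Psmb10* at 87.6 against 231 CPM, *Psme1* at 160 against 298 CPM, *Psme2* at 206 against 384 CPM and *Tapbpl* at 11.9 against 23.3 CPM. Within *LApc*, *Psmb10* alone was at least 1.5-fold lower, at 129 against 232 CPM, and *Pdia3* alone at least 1.5-fold higher, at 297 against 185 CPM. *Pdia3* lay within 1.5-fold there with TMM.

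Of 14 other class I and class I-like genes, 13 were found and 9 passed the filter in the comparison of adenoma-enriched cells. There 7 were at least 1.5-fold lower in *LApcL* and none higher. They were *H2-Q7* (2.42 against 69.7 CPM), *H2-Q6* (0.577 against 14.5 CPM), *H2-Q4* (5.79 against 38.3 CPM), *Cd1d1*, which presents lipids (2.99 against 15.1 CPM), *H2-T22* (10.9 against 40.0 CPM), *H2-Q2* (11.4 against 29.3 CPM) and *H2-Q10* (6.21 against 13.6 CPM). Of the 7, *H2-Q7*, *H2-Q6* and *Cd1d1* passed the filter through *LApc* alone. Reads of the *H2-Q* genes may be split among near copies. *H2-T3*, of the thymus leukemia antigen, and *Fcgrt*, the neonatal Fc receptor, went another way. Both were at least 1.5-fold lower in adenoma-enriched than in other Wnt/TA-like cells of both libraries, *H2-T3* at 6.23 against 33.1 CPM in *LApc* and 7.21 against 26.7 CPM in *LApcL*, and *Fcgrt* at 9.30 against 31.7 CPM and 8.29 against 29.1 CPM. *H2-Q10* was also at least 1.5-fold lower within *LApc*, at 13.6 against 24.8 CPM, but not within *LApcL* (6.21 against 5.29 CPM). Of the 10 genes of this list that passed the filter within *LApc*, 3 were thus lower, and 6 were at least 1.5-fold higher. *H2-M3*, at 7.12 against 3.89 CPM, was at least 1.5-fold higher within *LApc*, where it passed the filter through the adenoma-enriched pool alone.

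Of 17 regulators, 16 passed the filter and 7 were at least 1.5-fold lower in *LApcL* adenoma-enriched cells. Among them were *Stat2*, which carries the interferon signal (2.94 against 10.5 CPM), *Irf7* (11.0 against 31.2 CPM), *Irf9* (8.60 against 21.0 CPM), *Irf1* (18.4 against 37.4 CPM), *Socs1* (3.97 against 6.33 CPM) and *Rfxap*, part of the factor that binds the X box (29.4 against 44.9 CPM). *Stat2* and *Socs1* passed the filter through *LApc* alone. With TMM, *Socs1* and *Rfxap* lay within 1.5-fold. The Polycomb genes lay within 1.5-fold, *Ezh2* at 78.4 against 84.2 CPM, *Eed* at 48.2 against 47.0 CPM and *Suz12* at 59.3 against 51.4 CPM. Within the libraries, *Rela* was at least 1.5-fold higher in adenoma-enriched than in other Wnt/TA-like cells in both, and *Irf8* at least 1.5-fold lower in both (58.1 against 107 CPM in *LApc*, 41.4 against 87.8 CPM in *LApcL*). *Irf2* was at least 1.5-fold lower within *LApc*, at 35.3 against 53.1 CPM. *Irf7* was at least 1.5-fold higher in both (31.2 against 7.21 CPM in *LApc*, 11.0 against 5.45 CPM in *LApcL*). *Irf1* (18.4 against 40.2 CPM) and *Irf9* (8.60 against 13.1 CPM) were at least 1.5-fold lower within *LApcL*.

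All 9 interferon receptor and kinase genes passed the filter, and 3 were at least 1.5-fold lower in *LApcL* adenoma-enriched cells, *Ifnar2* (8.35 against 15.0 CPM), *Ifngr1* (35.1 against 56.1 CPM) and *Jak2* (14.4 against 22.6 CPM). Of these 3, *Ifngr1* and *Jak2* lay within 1.5-fold with TMM. *Ifngr1* was at least 1.5-fold lower, and *Ifngr2*, *Ifnar2* and *Jak2* at least 1.5-fold higher, in adenoma-enriched than in other Wnt/TA-like cells of both libraries. With TMM, *Jak2*, at log2 ratios of 0.64 (*LApc*) and 0.68 (*LApcL*), fell under 1.5-fold in both. So did *Ifngr2* within *LApcL*, at 0.72 before TMM. Within *LApcL*, *Ifnar2* (8.35 against 4.79 CPM) passed the filter through the adenoma-enriched pool alone. *Ifnar1* was at least 1.5-fold higher within *LApc*, at 19.3 against 12.1 CPM, but not with TMM. Of 20 interferon-stimulated genes, 14 passed the filter and 13 were at least 1.5-fold lower in *LApcL*. Of these 13, 10 passed it through *LApc* alone. The largest gaps were *Iigp1* (0.424 against 26.7 CPM), *Cxcl9* (0.838 against 35.9 CPM), *Gbp2* (0.991 against 39.8 CPM), *Gbp3* (0.613 against 11.9 CPM), *Igtp* (3.46 against 49.0 CPM), *Usp18* (1.30 against 17.9 CPM), *Zbp1* (3.87 against 42.7 CPM), *Cxcl10* (2.17 against 17.0 CPM), *Gbp7* (2.14 against 14.7 CPM) and *Isg15* (6.38 against 40.6 CPM). Within *LApc* the 14 genes that passed were at least 1.5-fold higher in adenoma-enriched than in other Wnt/TA-like cells, beside 27.4% of all genes. Of these 14, 9 had passed through the adenoma-enriched pool alone. Within *LApcL* 4 passed the filter, of which *Oasl2* was higher (12.0 against 4.54 CPM) and *Irgm1* lower (7.34 against 15.5 CPM) by at least 1.5-fold. *Oasl2* had passed it through the adenoma-enriched pool alone.

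All 6 class II genes were also at least 1.5-fold lower in *LApcL* adenoma-enriched cells, *Cd74*, the invariant chain, at 92.6 against 536 CPM, *H2-Ab1* at 26.2 against 147 CPM, *H2-Eb1* at 20.3 against 90.3 CPM, *H2-Aa* at 11.1 against 76.2 CPM, *H2-DMb1* at 4.35 against 22.8 CPM and *H2-DMa* at 5.31 against 18.8 CPM. *H2-DMb1* passed the filter through *LApc* alone. Class II is made by macrophages and B cells as well as by epithelium, and in this comparison the markers of those cells moved with it as given above. Within *LApc*, *Cd74*, at 536 against 733 CPM, and *H2-DMa*, at 18.8 against 49.8 CPM, stood lower in adenoma-enriched than in other Wnt/TA-like cells. There 2 of the 6 genes were at least 1.5-fold lower, beside 11.1% of all genes, and the macrophage markers summed to 48.5 against 2.36 CPM. Within *LApcL* all 6 were at least 1.5-fold lower, 1 of them having passed the filter through the other Wnt/TA-like pool alone. The macrophage markers there summed to 2.51 against 1.24 CPM. The part of immune cells in the class II level was not tested. In cells free of all 25 immune and stromal markers, 13 of 14 interferon-stimulated, 7 of 9 other class I and 6 of 6 class II genes were at least 1.5-fold lower in *LApcL*. The share of all genes lower in these cells is not given here, and it was 16.5% over all adenoma-enriched cells. Over all those cells 10, 3 and 1 of the genes called lower in these lists had passed the filter through *LApc* alone. None of the 5 ligands of the Nkg2d receptor passed the filter in any of these comparisons.

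**Figure D5:**
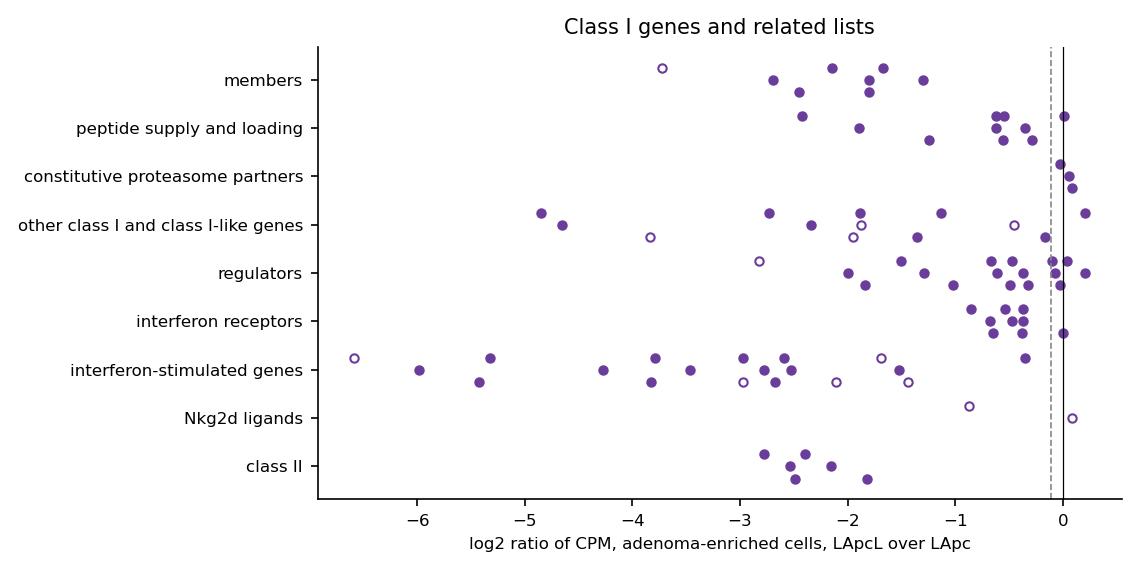
Log2 ratio of CPM, *LApcL* over *LApc* adenoma-enriched cells (x axis), for the 8 class I genes and each related list (y axis), with 1 point per gene and open points under a mean of 5 CPM. The dashed line marks the median of all genes tested (-0.11). The interferon-stimulated, class II and other class I genes spread to the left with the 8 genes, and the constitutive proteasome partners lie at 0.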

How the data were processed

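The authors deposited UMI counts per gene and barcode, without normalization, made with Cell Ranger 2.1.1 on a mm10 (GRCm38) reference per the submitters' processing notes. The study's methods name more than 1 kit version without saying which library used which.

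In each library, barcodes outside the central range of detected genes (1% off either end) and those with over 20% mitochondrial UMIs were removed. Scrublet (scanpy 1.11.5) scored doublets. Its automatic threshold marked 2065, 4 and 755 cells, so as many top-scoring cells as the loading predicts were taken out instead (970, 1102 and 2211), a choice made after that outcome was seen. Seurat 5.3.0 (R 4.3.3) integrated the libraries on 939 features, without 91 listed genes, and clustered at resolution 0.2. Clusters were named from at least 3 raised markers. Wnt/TA-like cells were corrected by mutual nearest neighbours and subclustered at resolution 0.4. Adenoma-enriched meant under 10% WT cells with libraries weighted equally.

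Counts were summed per class and library. No test was run, since each group had 1 library and cells are not replicates. CPM carry exact Poisson intervals and log2 ratios the exact conditional binomial interval. The call of 1.5-fold needed a mean of 5 CPM. The log2 ratio, its interval and the 1.5-fold call were checked on simulated counts, and the other steps were not. Of the listed genes, those at least 1.5-fold different in adenoma-enriched cells were named, at most 10 per list, and examples within 1.5-fold were picked after their values were seen. The values of 1 listed gene are not reported here. The members and lists were chosen with earlier results of these data known. Settings changed in turn were scaling (also TMM from edgeR 4.0.16), weight of cells, doublets, mitochondrial limit, immune markers, classes, neighbour correction, thinning and the filter. Gene positions came from GENCODE vM21, promoters from RefSeq (GRCm38.p6).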

Additional observations from a re-analysis of the deposited data

Results flagged for a closer look

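The contrast of adenoma-enriched with other Wnt/TA-like cells ran in opposite directions in *LApc* and *LApcL* for their sum and for 5 of the 8 genes, with counting intervals that left out 0 in both libraries. *Tapbp* was also on opposite sides of 0, at 0.97 and -0.06, but its interval in *LApcL* (-0.19 to 0.08) held 0. The differences, *LApcL* minus *LApc* on the log2 scale, were not tested, since each genotype had 1 library. For the sum the log2 ratio was 1.07 in *LApc* and -0.61 in *LApcL*, a difference of -1.67. *B2m* went from 0.64 to -1.40, a difference of -2.03, and *H2-K1* from 1.26 to -0.17, a difference of -1.43. For the transporter, *Tap1* went from 0.43 to -1.69, a difference of -2.12, and *Tap2* from 1.03 to -1.37, a difference of -2.40. *Nlrc5* gave 0.85 and -1.93, a difference of -2.78 that rests on 10 to 29 UMIs per pool. Markers of T and NK cells moved with the *LApc* level, as given above, and in cells without any immune or stromal marker the summed log2 ratios were 1.01 and -0.63.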

How the results depend on the processing

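No paired analysis was possible because each genotype had 1 library. Of 60 summed values under another setting, 37 moved beyond their counting interval. The sum of adenoma-enriched over other Wnt/TA-like cells in *LApc* was 0.88 without ribosomal protein and mitochondrial genes, 0.78 with TMM, 1.17 as a mean of per-cell CPM, 1.02 without doublet removal and 1.02 without cells holding 2 or more immune or stromal markers. It was 1.13 with classes by marker score and 0.51 without neighbour correction, which leaves 7 *LApc* cells outside the adenoma class. In *LApcL* it was -0.75 without ribosomal protein and mitochondrial genes, -0.77 with TMM, -0.57 as a per-cell mean, -0.56 without doublet removal, -0.50 by marker score and -0.64 without correction (17 cells). *LApcL* over *LApc* in adenoma-enriched cells gave -1.79, -1.66, -1.96, -1.85, -1.86, -1.99 and -1.28 in the order given for *LApc*. In settings chosen after seeing the data, *LApc* gave 1.01 in cells without any immune or stromal marker and 0.73 without the *Wfdc18*-led group (*Nlrc5* then -0.59), and *LApcL* over *LApc* -1.87 and -1.57. Without correction, but with subclusters low in *Sox17* counted as non-adenoma, the 3 sums were 1.07, -0.62 and -1.90. The 3 kept their direction in every setting run. Without correction, however, the adenoma class took 3447 *LApc* and 10506 *LApcL* cells. The other Wnt/TA-like pools (7 and 17 cells) were then under the minimum of 50 for a level. That setting therefore adds no support for the sums within *LApc* and within *LApcL*.

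In other Wnt/TA-like cells, *LApc* over WT was 0.022 without ribosomal protein and mitochondrial genes and -0.10 with TMM. *LApcL* over WT was -0.14 without those genes and -0.37 by marker score. In enterocyte-like cells, *LApc* over WT was 0.21 without those genes, 0.36 as a per-cell mean and -0.088 at a 10% mitochondrial limit. There *LApcL* over WT was 0.045, 0.089 and -0.13 in the same order, -0.18 with TMM, -0.090 without doublet removal and 0.031 by marker score.

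Counts of genes past 1.5-fold moved as follows. The shares of all genes past 1.5-fold under these settings are not given here, so the counts show only how the calls shift. Without correction they rest on other Wnt/TA-like pools of 7 (*LApc*) and 17 cells (*LApcL*). Within *LApc*, 5 rather than 6 were higher with TMM, without ribosomal protein and mitochondrial genes, without cells holding 2 or more immune or stromal markers, in cells without any such marker and without the *Wfdc18*-led group, and 4 without correction. In other Wnt/TA-like cells of *LApc* over WT, 2 rather than 3 were higher with TMM and without doublet removal. Within *LApcL*, 1 was higher without correction (*Tapbp*, at a log2 ratio of 0.70) and 4 were lower without the filter. In other Wnt/TA-like cells of *LApcL* over WT, 1 was higher without the filter and 1 lower by marker score. In enterocyte-like cells 1 was higher in *LApc* as a per-cell mean and 1 lower in *LApcL* without the filter. Thinned to 2000 UMIs, the *B2m* shares were 61.2% and 37.1% in adenoma-enriched cells and 78.9%, 72.7% and 72.0% in the others. The causes of these shifts were not tested. *Nlrc5*, at 9 to 29 UMIs per Wnt/TA-like pool, is limited by depth.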

Other observations

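A cluster of 48 WT, 180 *LApc* and 268 *LApcL* cells was left unnamed, since its best-matching list, T and NK cells, had 2 of 10 markers raised, while 5 Wnt/TA markers were raised too. Its summed level of the 8 genes was 2683 (*LApc*) and 972 CPM (*LApcL*). *B2m* stood at 1212 and 348 CPM, *H2-K1* at 638 and 241 CPM, *H2-D1* at 611 and 306 CPM and *Tap2* at 35.1 and 3.55 CPM. *Nlrc5* had 1 UMI in *LApc* and none in *LApcL*. The WT cells were under the minimum of 50 for a level.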
